A study of Mus musculus with 6 samples.

Results

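Cell cycle and DNA replication genes are described here in MC38 tumors of mice treated with GB2 or with PBS. The set holds 50 genes, picked by symbol from the 33965 genes of the deposited table, and all 50 were found once. Of these, 12 act in S phase (Pcna, Mcm2 to Mcm7, Cdc45, Gins1, Gins2, Rrm1 and Rrm2), 24 act in mitosis, and 14 are cyclins, licensing factors, transcription factors and other cell-cycle genes. MC38 cells are an established line of mouse colon carcinoma, grown here as tumors under the skin of C57BL/6 mice, which keep an intact immune system. GB2 is a prodrug in which artesunate and the STING agonist MSA-2 are held together by a disulfide bond. The PBS group had 3 tumors and the GB2 group had 3 tumors, with no other allele or agent named in the labels. According to the methods the mice were bought as 6-week-old females, and the dose, route and time of sampling are not stated for the sequenced tumors. RNA of whole tumor pieces was sequenced, so every value averages over tumor cells, immune cells and stroma, and fewer cells of a type cannot be told apart from less RNA per cell.

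A dividing cell copies its DNA in S phase and separates the copies in mitosis. Origins of replication are licensed when Cdc6 and Cdt1 load the ring of Mcm2 to Mcm7, which becomes the moving helicase once Cdc45 and the GINS proteins join it, while Pcna clamps the polymerase to DNA and ribonucleotide reductase supplies the building blocks. Genes of this step are classic targets of the E2F transcription factors, and genes of mitosis are known to carry a cell cycle homology region (CHR) and CCAAT boxes in their promoters. In tumors the whole group is widely read as a measure of how many cells are cycling.

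Promoter sequences were taken from the RefSeq promoter table on GRCm38.p6, which covers 250 bases before to 50 bases after each start and held an entry for 40 of the 50 genes. The letters searched on both strands were TTCCCGC or TTCGCGC or TTGCCGC or TTGGCGC for E2F, then TTTGAA for the CHR, and the CCAAT box. The reverse complement of the last E2F word, GCGCCAA, can share its final letters with a CCAAT box. At least 1 E2F word stood in 6 of 9 S-phase promoters (66.7%) and in 2 of 20 mitotic promoters (10%), against 10.9% of the 27025 genes of the table. The CHR letters stood in 2 of 9 S-phase promoters (22.2%) and in 14 of 20 mitotic promoters (70.0%), against 20.2% of all genes. CCAAT was present in all 9 S-phase promoters and in 16 of 20 mitotic promoters (80.0%), against 41.1% of all genes. The E2F words were thus more frequent in S-phase promoters and the CHR letters in mitotic ones, while CCAAT was frequent in both. Within the 150 bases before the start alone, E2F words stood in 44.4% of S-phase promoters and CHR letters in 30.0% of mitotic ones. A match of letters is a description of the window and not evidence of a bound factor, and base composition was not matched between the genes.

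**Figure D1:**
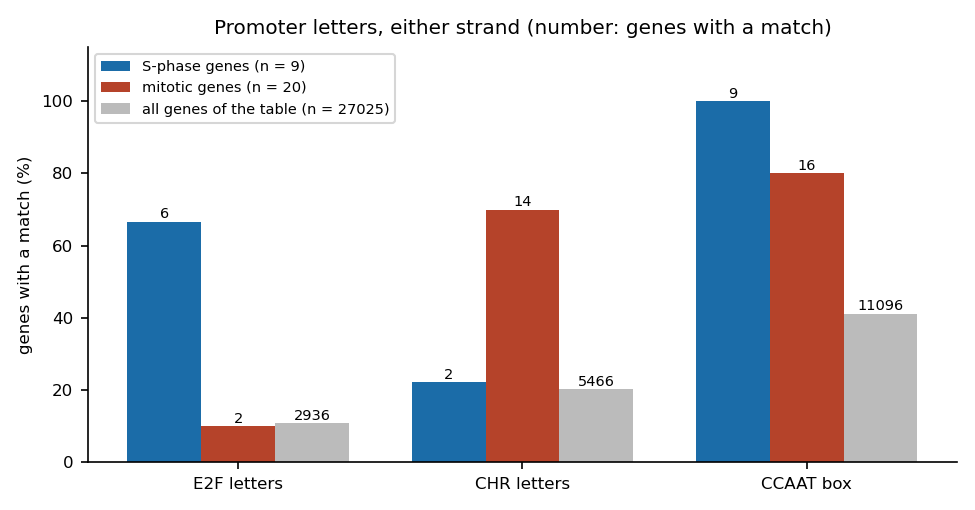
Share of genes (%) with at least 1 match of the E2F, CHR or CCAAT letters on either strand in the 300-base RefSeq window, for 9 S-phase genes, 20 mitotic genes and 27025 genes of the table, with the number of genes above each bar. E2F letters reach 66.7% in S-phase genes and CHR letters 70.0% in mitotic genes.

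The following S-phase promoters show the 150 bases before the start, 5′ to 3′ in the direction of the gene, with every match in capitals. Mcm2 and Mcm5 are shown because both had an unadjusted p under 0.05 between GB2 and PBS tumors, and Mcm6 and Rrm1 because they carry E2F words near the start. Mcm4 and Rrm2 also had an unadjusted p under 0.05. Mcm4 has no promoter entry, and Rrm2, with a CCAAT box as its only match near the start, is not shown. The windows are chr6:88898781-88898930 (minus strand), chr8:75109359-75109508 (plus strand), chr1:128359706-128359855 (minus strand) and chr7:102441545-102441694 (plus strand). The bases after the start read as the gene's transcript in 29 of 43 promoter entries of the set, and as its reverse complement in 0. Mcm2 and Rrm1 were among the 29, and Mcm5 and Mcm6 were not. Mcm6 holds 2 blocks in which an E2F word overlaps another E2F word read on the other strand. The only match in the bases shown of Mcm2 is the CHR word, with a CCAAT box elsewhere in its whole window.
Mcm2: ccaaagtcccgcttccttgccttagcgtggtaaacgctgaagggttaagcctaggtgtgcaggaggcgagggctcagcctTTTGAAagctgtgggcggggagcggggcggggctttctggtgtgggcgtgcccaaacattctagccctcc
Mcm5: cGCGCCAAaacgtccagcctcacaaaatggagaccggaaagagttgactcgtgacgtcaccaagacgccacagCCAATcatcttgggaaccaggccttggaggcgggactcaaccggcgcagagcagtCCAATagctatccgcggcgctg
Mcm6: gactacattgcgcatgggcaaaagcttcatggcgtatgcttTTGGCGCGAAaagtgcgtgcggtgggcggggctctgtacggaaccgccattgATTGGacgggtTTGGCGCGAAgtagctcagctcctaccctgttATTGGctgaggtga
Rrm1: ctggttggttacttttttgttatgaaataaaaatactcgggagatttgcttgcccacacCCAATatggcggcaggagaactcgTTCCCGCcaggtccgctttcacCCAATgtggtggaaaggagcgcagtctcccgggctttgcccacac

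The mitotic promoters below are shown in the same way, Bub1b because it had the smallest p-value of the mitotic genes, and Cdk1, Cdc20 and Ube2c because the CHR word and CCAAT boxes lie together near the start. The windows are chr2:118598061-118598210 (plus strand), chr10:69352913-69353062 (minus strand), chr4:118437344-118437493 (minus strand) and chr2:164769779-164769928 (plus strand). In the bases shown Cdk1 holds an E2F word, 2 CHR words and 2 CCAAT boxes, whereas Bub1b holds a CCAAT box only. Bub1b has a CHR word elsewhere in its whole window.
Bub1b: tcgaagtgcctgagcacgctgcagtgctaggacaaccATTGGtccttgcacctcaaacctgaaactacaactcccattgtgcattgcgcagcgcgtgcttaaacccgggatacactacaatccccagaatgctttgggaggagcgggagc
Cdk1: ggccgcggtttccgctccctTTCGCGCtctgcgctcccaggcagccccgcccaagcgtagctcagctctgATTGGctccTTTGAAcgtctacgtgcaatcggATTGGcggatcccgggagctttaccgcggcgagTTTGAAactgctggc
Cdc20: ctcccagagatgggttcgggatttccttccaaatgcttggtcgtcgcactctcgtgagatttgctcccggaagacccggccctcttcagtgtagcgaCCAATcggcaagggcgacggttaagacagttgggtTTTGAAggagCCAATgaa
Ube2c: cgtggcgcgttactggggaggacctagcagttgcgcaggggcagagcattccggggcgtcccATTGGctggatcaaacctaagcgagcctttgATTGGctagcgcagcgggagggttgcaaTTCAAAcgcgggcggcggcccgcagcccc

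The libraries held between 64764405 and 83690056 estimated counts, and the GB2 libraries were the 3 largest. PBS tumor 1 stood apart from the other 5 on the leading principal component (34.0% of the variance), and 0.989% of its counts were mitochondrial against 2.61% to 3.65% elsewhere. No marker of another cell type was called by edgeR (smallest adjusted p = 0.166), but the summed levels of macrophage, neutrophil, fibroblast, endothelial, muscle and epithelial markers lay higher in all GB2 tumors than in any PBS tumor. The summed level of 10 macrophage markers was 74.8, 91.3 and 62.9 CPM (library-scaled counts) in PBS tumors 1, 2 and 3 and 261, 255.4 and 362 CPM in GB2 tumors 1, 2 and 3, and that of 8 fibroblast markers was 416, 530.4 and 299 CPM against 1177, 989 and 1365 CPM. All 18 of these genes had an unadjusted p under 0.05, against 6.94% of all genes, as did 7 of 8 endothelial markers, with Vwf as the exception at a log2 fold change of -0.48. The same held for 4 of 8 skeletal muscle markers, and these 8 summed to 125, 99.7 and 169 CPM against 241, 214 and 213 CPM. The 4 erythroid markers summed to 5009, 1801 and 346 CPM against 917, 82.0 and 67.5 CPM, the highest in PBS tumor 1. The 8 T-cell markers summed to at most 8.03 CPM, with Cd3d, Cd3e and Cd3g at 0 in PBS tumor 3. The 6 neutrophil markers, 4 of which had an unadjusted p under 0.05, summed to 2.87, 4.44 and 2.07 CPM against 11.6, 9.14 and 12.02 CPM. The 8 epithelial markers summed to only 7.61, 6.80 and 8.18 CPM against 8.56, 13.3 and 13.8 CPM, with Epcam at 1.01 CPM or less. At such low levels these markers neither bear out nor contradict the colon carcinoma label, and the identity of the tumor cells was not tested. The part that the shift in cell makeup plays in the values of the cell-cycle genes was not tested.

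No cell cycle or replication gene reached significance between GB2 and PBS tumors, and most of the genes stood slightly higher in GB2 tumors. In the edgeR quasi-likelihood fit over 19602 genes, 0 of the 50 genes were called (adjusted p under 0.05 with at least 2-fold change), and the share of all genes called was 0%. The smallest adjusted p was 0.439 among the 50 genes and 0.166 among all genes. DESeq2 called 373 genes of the table (1.17%), and 0 of the 50. At an unadjusted p under 0.05 edgeR returned 6 of the 50 genes (12%), all higher in GB2 tumors, against 6.94% of all genes (4.69% higher and 2.24% lower). The 6 were Mcm4, E2f2, Mcm2, Mcm5, Bub1b and Rrm2. The difference was above 0 in 40 of the 50 genes (80.0%), against 48.3% of all genes, and the median log2 fold change was 0.13 against -0.02. Leaving out PBS tumor 1 gave a median of 0.25, PBS tumor 3 a median of 0.01 and GB2 tumor 3 a median of 0.07, and limma on FPKM gave 0.22 with a pseudocount of 1 and 0.23 with 0.1. The values ran from -0.67 in Birc5 to 0.73 in Mcm2. The GB2 and PBS tumors did not overlap in 9 genes (18%), all higher in GB2 tumors, against 15.3% of all genes (8.61% higher and 6.68% lower). These counts rested on individual tumors. Without PBS tumors 1, 2 and 3 the genes with an unadjusted p under 0.05 numbered 14, 9 and 3 (9.02%, 7.32% and 10.6% of all genes). They numbered 2, 1 and 2 without GB2 tumors 1, 2 and 3 (4.8%, 4.53% and 4.65% of all genes). Without PBS tumor 3 only 25 of the 50 genes were higher in GB2 tumors, and without PBS tumor 1 they were 48. The log2 fold change of 43 of the 50 genes moved by more than 1.5 times or turned sign when some tumor was left out, 38 of them without PBS tumor 1 and 33 without PBS tumor 3. The other 7 were Mcm4, E2f2, Mcm5, Rrm2, Bub1b, Cdc45 and Mybl2.

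**Figure D2:**
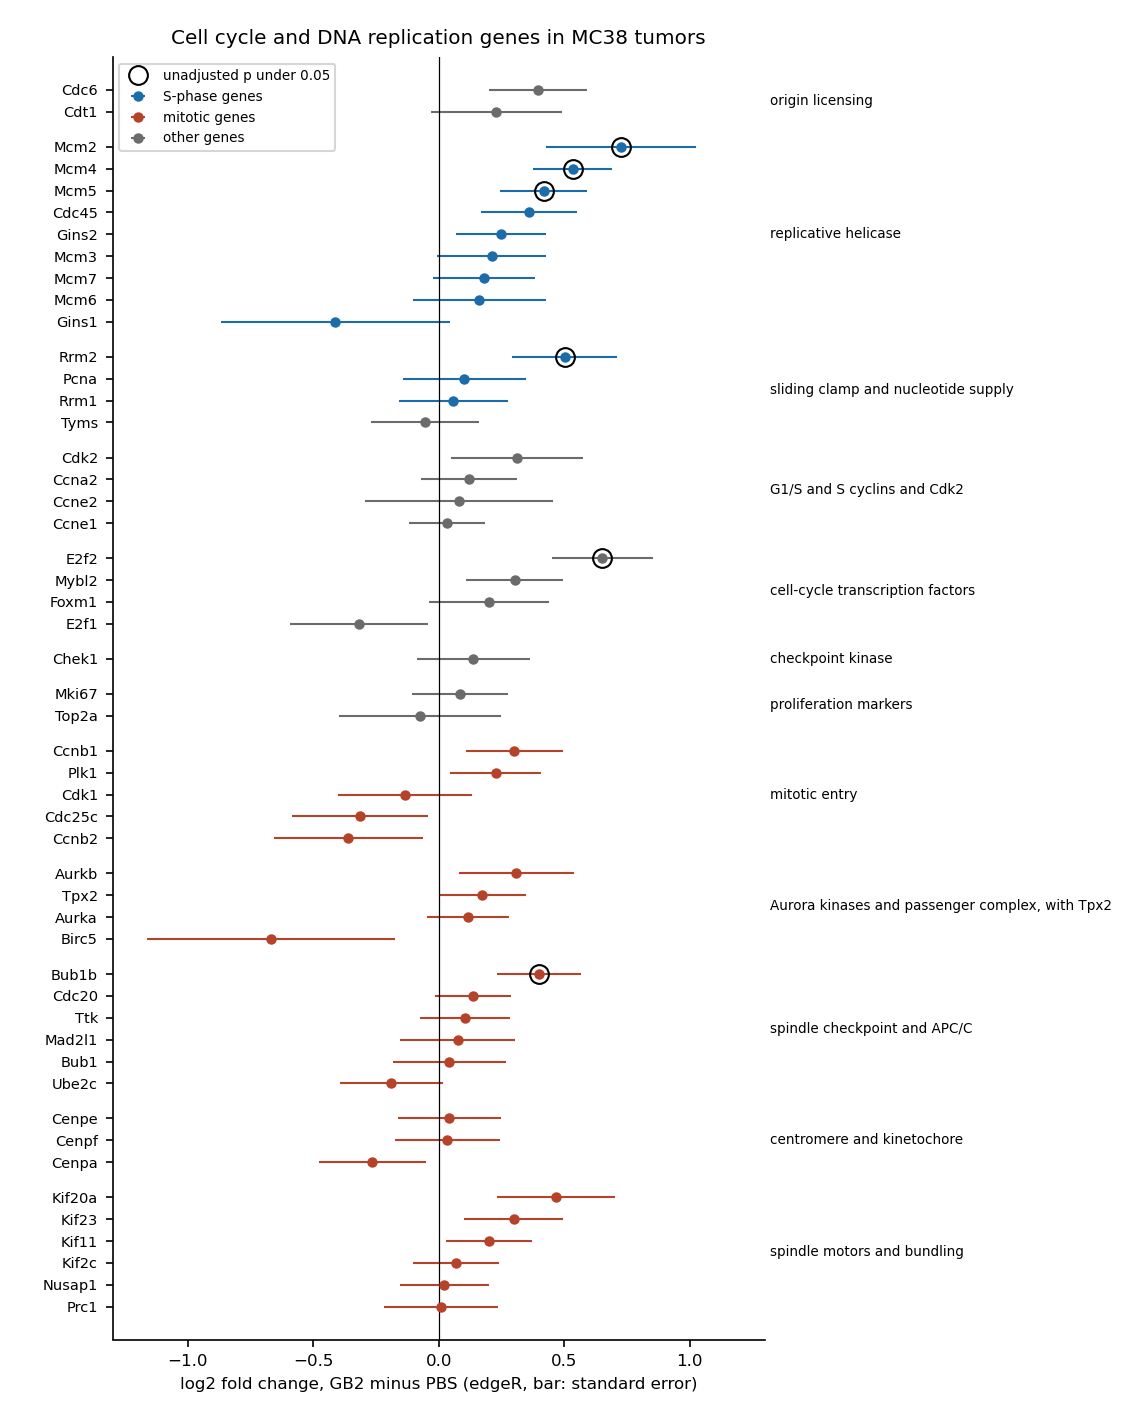
Log2 fold change of each of the 50 genes, GB2 minus PBS (x axis, edgeR), with its standard error, ordered by role (right). Circled genes have an unadjusted p under 0.05; 40 of the 50 points lie to the right of 0 and none has an adjusted p under 0.439.

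In the replicative helicase 8 of 9 genes were higher in GB2 tumors and 3 had an unadjusted p under 0.05 (33.3%, against 6.94% of all genes). The 3 were Mcm2, Mcm4 and Mcm5. Only Mcm4 kept an unadjusted p under 0.05 without PBS tumor 3 or with any GB2 tumor left out, whereas Mcm2 to Mcm7 all had one without PBS tumor 1. The median log2 fold change of the 9 genes was 0.25, beside 0.31 for the 2 licensing factors and 0.25 for the 4 transcription factors. Values are given here and below in the order of tumors 1, 2 and 3, scaled by library size and TMM. Mcm4, a subunit of the MCM ring, measured 147, 130.4 and 131 CPM in PBS tumors and 192, 212 and 187 CPM in GB2 tumors. All 3 GB2 tumors lay above all 3 PBS tumors, with little spread inside either group. The log2 fold change was 0.53 ± 0.16 (SE, n = 3 per group, adjusted p = 0.439), the smallest p-value of the set. Mcm2, a ring subunit often stained as a marker of proliferating cells, measured 214, 477 and 357 CPM in PBS tumors and 501, 567 and 664 CPM in GB2 tumors. The groups did not overlap, but PBS tumor 1 was far below its group and PBS tumor 2 was close to GB2 tumor 1. Its log2 fold change of 0.73 ± 0.30 was the highest of the set (adjusted p = 0.702), and it was 0.48 without PBS tumor 1.

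Mcm5 measured 159, 177 and 144 CPM in PBS tumors and 194, 205 and 243 CPM in GB2 tumors, again without overlap, at a log2 fold change of 0.42 ± 0.17 (adjusted p = 0.706). The other 3 ring subunits overlapped between the groups, with PBS tumor 1 within or above the GB2 range. Their log2 fold changes were 0.21 ± 0.22 for Mcm3, 0.16 ± 0.26 for Mcm6 and 0.18 ± 0.20 for Mcm7, and 0.41, 0.49 and 0.38 with PBS tumor 1 left out. With PBS tumor 3 left out they were 0.06, -0.01 and 0.06. Mcm6, for instance, measured 337, 209.9 and 178 CPM in PBS tumors and 236, 266 and 308 CPM in GB2 tumors. The 6 subunits assemble into a ring together, yet PBS tumor 1 held the lowest level of Mcm2 and the highest of Mcm6. Cdc45, which joins the ring to start unwinding, had a log2 fold change of 0.36 ± 0.19 with overlapping groups. Gins2, a GINS subunit, measured 28.9, 39.3 and 38.7 CPM and 43.0, 41.6 and 42.3 CPM in PBS and GB2 tumors, without overlap, at 0.25 ± 0.18. Gins1, another GINS subunit, was the only helicase gene with a lower value in GB2 tumors. It measured 40.9, 16.1 and 11.6 CPM in PBS tumors and 16.0, 14.3 and 21.2 CPM in GB2 tumors, at a log2 fold change of -0.41 ± 0.46 (adjusted p = 0.846), and PBS tumor 1 alone placed it below 0, since it was 0.32 without that tumor.

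Of the licensing factors that load the ring, Cdc6 measured 44.9, 44.1 and 30.5 CPM in PBS tumors and 53.03, 54.1 and 50.0 CPM in GB2 tumors. The groups did not overlap, and the log2 fold change was 0.40 ± 0.19 (adjusted p = 0.757), or 0.24 with PBS tumor 3 left out. Cdt1, its partner in loading, measured 93.5, 101 and 71.6 CPM and 83.3, 86.1 and 143 CPM. Only GB2 tumor 3 was above the PBS range, and without it the log2 fold change of 0.23 ± 0.26 became -0.07.

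**Figure D3:**
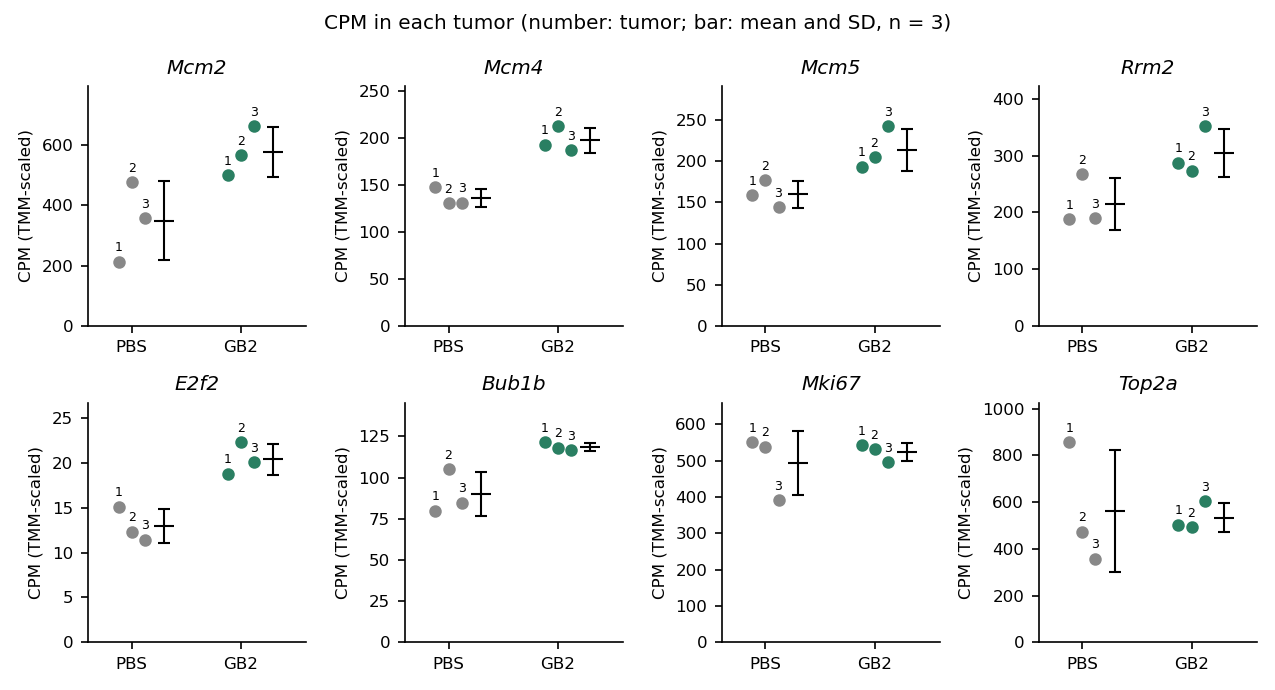
CPM (TMM-scaled, y axis from 0) of 8 genes in the 3 PBS and 3 GB2 tumors, each point numbered by tumor, with the mean and SD of each group (n = 3) beside the points. In the 6 genes with an unadjusted p under 0.05 all GB2 tumors lie above all PBS tumors, whereas Mki67 and Top2a overlap.

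Among the clamp and nucleotide genes, Rrm2 was the one with an unadjusted p under 0.05. Rrm2, the small subunit of ribonucleotide reductase whose level peaks in S phase, measured 188, 267 and 189.9 CPM in PBS tumors and 287, 274 and 352 CPM in GB2 tumors. All GB2 tumors lay above all PBS tumors, although PBS tumor 2 came close to the lowest GB2 tumor. The log2 fold change was 0.50 ± 0.21 (adjusted p = 0.711). Rrm1, the large subunit of the same enzyme, overlapped between the groups at 0.06 ± 0.22. Pcna, the sliding clamp, measured 518, 330.0 and 287 CPM in PBS tumors and 386, 408 and 423 CPM in GB2 tumors. The GB2 tumors were close to each other and lay between PBS tumor 1 and the other PBS tumors, so that the log2 fold change of 0.10 ± 0.25 (adjusted p = 0.924) was 0.41 without PBS tumor 1 and -0.06 without PBS tumor 3. Tyms, thymidylate synthase, measured 99.1, 74.7 and 58.4 CPM and 75.6, 76.2 and 71.6 CPM, at -0.06 ± 0.21.

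The cyclins and kinase that drive entry into S phase overlapped between the groups in all 4 genes, and none had an unadjusted p under 0.05 with all 6 tumors. Cdk2 measured 449, 862 and 544 CPM in PBS tumors and 725, 831 and 749 CPM in GB2 tumors, at a log2 fold change of 0.31 ± 0.26 (adjusted p = 0.805), with PBS tumor 2 the highest of all. It was 0.63 when PBS tumor 2 was left out, with an unadjusted p under 0.05, and 0.14 when PBS tumor 1 was. Ccne1, a cyclin E that activates Cdk2, varied little between tumors, at 45.9, 43.0 and 40.8 CPM and 42.4, 47.0 and 43.4 CPM and a log2 fold change of 0.03 ± 0.15. Ccne2, the second cyclin E gene, had 52.2, 20.3 and 20.4 CPM in PBS tumors, with tumor 1 far above the others, and 32.6, 32.1 and 33.5 CPM in GB2 tumors. Its log2 fold change of 0.08 ± 0.37 rested on single tumors, since it was 0.70 with an unadjusted p under 0.05 without PBS tumor 1 and -0.14 without PBS tumor 2 or PBS tumor 3. Ccna2, cyclin A, had a log2 fold change of 0.12 ± 0.19.

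The E2F genes that turn on the S-phase program had differences of opposite sign. E2f2 measured 15.1, 12.3 and 11.4 CPM in PBS tumors and 18.8, 22.3 and 20.1 CPM in GB2 tumors, with no overlap. Its log2 fold change was 0.65 ± 0.20 (adjusted p = 0.481). E2f1 measured 120.1, 67.9 and 60.2 CPM in PBS tumors and 59.4, 68.7 and 71.2 CPM in GB2 tumors, at -0.32 ± 0.28 (adjusted p = 0.810), and PBS tumor 1 carried the difference, which was 0.06 without it. Whether the 2 genes differ from each other in response was not tested. Mybl2 and Foxm1, which act on late S-phase and mitotic genes, had log2 fold changes of 0.30 ± 0.19 and 0.20 ± 0.24 with overlapping groups, and that of Foxm1 was 0.03 with PBS tumor 1 left out and 0.46 with PBS tumor 2 left out. Chek1, the kinase that answers stalled replication, measured 48.7, 38.3 and 29.3 CPM and 38.3, 40.5 and 49.0 CPM, at 0.14 ± 0.23.

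The usual proliferation markers did not separate the groups. Mki67, which encodes Ki-67, measured 549.5, 537 and 391 CPM in PBS tumors and 542, 531 and 495 CPM in GB2 tumors. The GB2 values lay inside the PBS range, and the log2 fold change was 0.08 ± 0.19 (adjusted p = 0.918). Top2a, the topoisomerase that untangles chromosomes before division, measured 856, 474 and 358 CPM in PBS tumors and 504, 493 and 605 CPM in GB2 tumors. PBS tumor 1 was the highest and PBS tumor 3 the lowest of all 6, and the log2 fold change of -0.08 ± 0.32 (adjusted p = 0.954) was 0.37 without PBS tumor 1.

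Of the 24 mitotic genes, 18 were higher and 6 lower in GB2 tumors, and only Bub1b had an unadjusted p under 0.05. In the entry group 3 of 5 genes were lower, but without PBS tumor 1 all 3 turned higher, to log2 fold changes of 0.23 in Cdk1 and 0.06 in Ccnb2 and Cdc25c. Cdk1, the kinase that starts mitosis, measured 285.2, 171 and 143 CPM in PBS tumors and 176, 179 and 191 CPM in GB2 tumors, at a log2 fold change of -0.13 ± 0.27 (adjusted p = 0.908). Its B-type cyclins differed in sign, without either passing the test. Ccnb1 measured 170.3, 179 and 144 CPM and 191, 173 and 242 CPM (0.30 ± 0.19, adjusted p = 0.771), with GB2 tumor 3 the highest. Ccnb2 measured 171, 97.5 and 74.5 CPM and 91.8, 87.3 and 88.1 CPM (-0.36 ± 0.30, adjusted p = 0.802), with PBS tumor 1 the highest. Cdc25c, the phosphatase that activates Cdk1, had a log2 fold change of -0.31 ± 0.27, and Plk1, a kinase of mitotic entry and spindle assembly, had 0.23 ± 0.18.

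Aurkb, the kinase of the chromosomal passenger complex, measured 69.7, 121 and 84.7 CPM in PBS tumors and 109.9, 106 and 125 CPM in GB2 tumors, at 0.31 ± 0.23 with overlapping groups. Leaving out PBS tumor 2 gave 0.56, with an unadjusted p under 0.05, and leaving out PBS tumor 1 gave 0.16. Birc5, which encodes survivin of the same complex, measured 376, 133 and 85.2 CPM in PBS tumors and 125, 117 and 132 CPM in GB2 tumors. PBS tumor 1 was far above every other tumor, and the GB2 tumors lay close to PBS tumor 2. The log2 fold change of -0.67 ± 0.50, the lowest of the set (adjusted p = 0.789), was 0.20 without PBS tumor 1. Without PBS tumor 3 it had an unadjusted p under 0.05 in the lower direction. Aurka, the spindle pole kinase, and Tpx2, its activator, had 0.12 ± 0.16 and 0.17 ± 0.17.

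In the spindle checkpoint, Bub1b, which encodes the checkpoint protein BubR1, measured 79.8, 105 and 84.7 CPM in PBS tumors and 121, 118 and 117 CPM in GB2 tumors. The GB2 tumors were close to each other and above every PBS tumor. The log2 fold change was 0.40 ± 0.17 (adjusted p = 0.711). The other checkpoint genes, Bub1, Mad2l1 and Ttk, had log2 fold changes between 0.04 and 0.11. Cdc20, the activator of the anaphase-promoting complex, had 0.14 ± 0.15. Ube2c, the ubiquitin-conjugating enzyme of that complex, measured 137, 139 and 90.2 CPM and 112.3, 101 and 109 CPM, at -0.19 ± 0.21.

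The 3 centromere genes had small differences of either sign. Cenpa, the histone H3 variant that marks the centromere, measured 134, 98.7 and 80.9 CPM in PBS tumors and 94.6, 81.9 and 84.8 CPM in GB2 tumors (-0.26 ± 0.21, adjusted p = 0.80). Most of this difference lay in PBS tumor 1, as it was -0.03 with that tumor left out. Cenpe, a kinetochore motor, measured 75.2, 69.5 and 47.1 CPM and 68.2, 65.7 and 63.6 CPM (0.04 ± 0.21), and Cenpf, a large kinetochore protein, had 0.03 ± 0.21. All 3 overlapped between the groups. Among the spindle motors and bundling proteins, Kif20a, a kinesin of cytokinesis, measured 65.7, 109 and 114 CPM in PBS tumors and 119, 139 and 139.9 CPM in GB2 tumors. The groups did not overlap, with PBS tumor 1 well below the rest, and the log2 fold change was 0.27 with that tumor left out (with all tumors 0.47 ± 0.23, adjusted p = 0.757). Prc1, which bundles the midzone microtubules, measured 254, 181 and 146 CPM and 184, 209.6 and 190.4 CPM (0.01 ± 0.23), the difference nearest to 0 in the set. Kif23, Kif11, Kif2c and Nusap1 had log2 fold changes of 0.30, 0.20, 0.07 and 0.02, and that of Kif23 was 0.50 with PBS tumor 2 left out.

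The S-phase genes were next set against the mitotic genes. Of the 12 S-phase genes, 11 were higher in GB2 tumors, 4 had an unadjusted p under 0.05 (33.3%, against 6.94% of all genes) and 5 did not overlap (41.7%, against 15.3%), with a median log2 fold change of 0.23. Of the 24 mitotic genes, 18 were higher, 1 had an unadjusted p under 0.05 (4.17%) and 2 did not overlap (8.33%), both below the shares over all genes, with a median of 0.07. Without PBS tumor 3, or with any GB2 tumor left out, Mcm4 was the only S-phase gene with an unadjusted p under 0.05. Without PBS tumor 1 these genes were Pcna, Mcm2 to Mcm7 and Rrm1 in S phase, and Bub1, Bub1b and Kif11 in mitosis. Without PBS tumor 2 they were Mcm2, Mcm4, Mcm5 and Rrm2 in S phase, and Aurkb, Bub1b and Kif23 in mitosis. The difference between the medians was 0.16. In each tumor the median of log2 CPM relative to the mean of the PBS tumors was then taken for both groups of genes. The S-phase minus mitotic value was 0.01, -0.07 and 0.05 in PBS tumors 1, 2 and 3. It was 0.11, 0.17 and 0.18 in the GB2 tumors in the same order. The PBS and GB2 tumors did not overlap in this value, which was -0.002 ± 0.060 (SD, n = 3) in PBS tumors and 0.15 ± 0.04 (SD, n = 3) in GB2 tumors. Since each gene was taken relative to its PBS mean, the PBS mean lies near 0 by construction. The GB2 mean thus restates the difference between the medians and is no separate result. Both medians were above the PBS mean in PBS tumor 1 (0.23 and 0.22) and below it in PBS tumor 3 (-0.22 and -0.27), whereas the gap between the groups of genes was above 0.1 in each GB2 tumor and below it in each PBS tumor. For 42 replication and 56 mitosis genes outside the set it was 0.03, 0.003 and -0.01 in PBS tumors and -0.04, -0.03 and 0.06 in GB2 tumors, so the tumors overlapped. Their median log2 fold changes were 0.11 and 0.07.

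**Figure D4:**
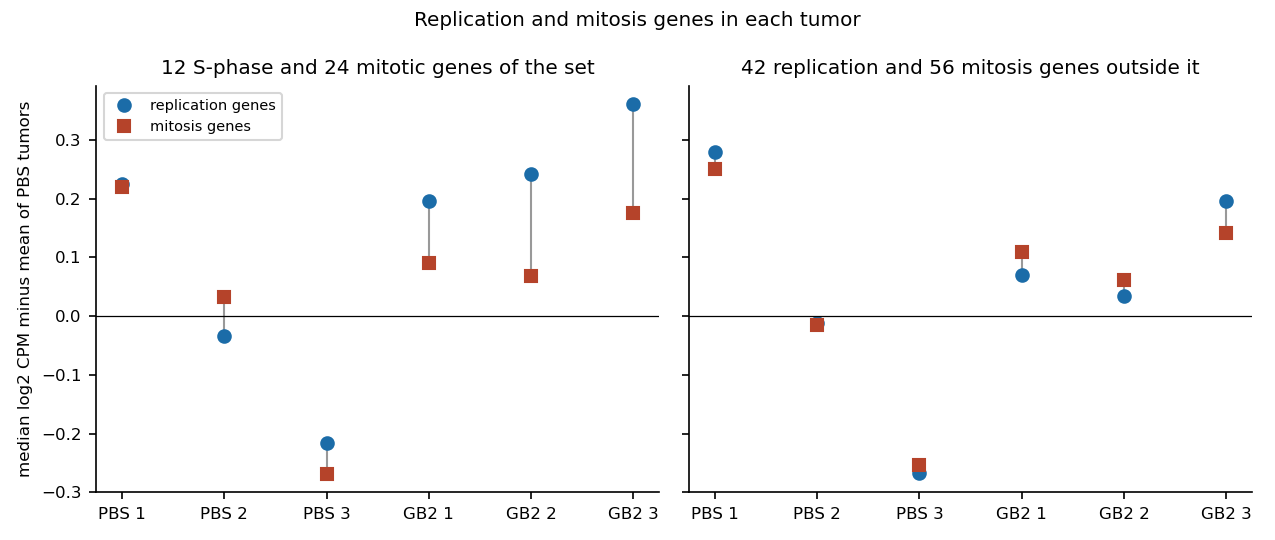
Median log2 CPM relative to the mean of the PBS tumors (y axis) in each tumor (x axis), for replication genes (circles) and mitosis genes (squares), with the 36 genes of the set on the left and 98 genes outside it on the right. On the left the circles lie above the squares by 0.11 to 0.18 in the GB2 tumors, and on the right the gap runs from -0.04 to 0.06.

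In other cell-cycle genes outside the set edgeR again called 0 genes. Among the 42 other replication genes 3 had an unadjusted p under 0.05 (7.14%, near the 6.94% of all genes), all higher in GB2 tumors. They were Chaf1b of the histone chaperone CAF-1 (66.1, 69.8 and 66.2 CPM against 79.9, 109 and 95.4 CPM, log2 fold change 0.49), Uhrf1, which helps to copy DNA methylation (132, 258 and 217 CPM against 303, 344 and 325 CPM, 0.68), and Orc1 of the origin recognition complex (14.3, 15.2 and 11.8 CPM against 16.1, 19.5 and 23.3 CPM, 0.51). In each of them the GB2 tumors lay above the PBS tumors. Among the 56 other mitosis genes 4 had an unadjusted p under 0.05 (7.14%, again near the share of all genes), all higher, and the 3 with the smallest p-values were Kntc1, Knl1 and Ect2, at log2 fold changes of 0.58, 0.53 and 0.38. Kntc1 and Knl1 encode kinetochore proteins, and Ect2 drives cleavage of the cell. The groups did not overlap in 11 of the 42 replication genes (26.2%) and 11 of the 56 mitosis genes (19.6%), against 15.3% of all genes. In each list 10 of these were higher in GB2 tumors and 1 was lower. Over the whole lists 27 of the 42 replication genes and 35 of the 56 mitosis genes were higher, against 48.3% of all genes and 80.0% of the set.

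Among genes of G1 control 16 of 20 had higher values in GB2 tumors (48.3% of all genes did), and the median log2 fold change was 0.19. An unadjusted p under 0.05 was found in 2 of them (10%, against 6.94% of all genes). E2f7, a repressor of the E2F family, measured 15.0, 18.1 and 14.4 CPM in PBS tumors and 27.2, 20.1 and 24.9 CPM in GB2 tumors (0.60), and Rbl1, the pocket protein p107, measured 51.4, 67.0 and 55.9 CPM and 73.7, 85.7 and 83.2 CPM (0.48). Both are known E2F targets. Ccnd1, cyclin D1, and Myc had log2 fold changes of 0.08 and -0.11, with overlapping groups. Of 8 CDK inhibitors, 5 were lower in GB2 tumors. Cdkn1a, which encodes p21, measured 129, 214 and 341 CPM in PBS tumors and 159, 181 and 156 CPM in GB2 tumors, at -0.46 ± 0.33 (adjusted p = 0.787). PBS tumor 3, the tumor lowest in most cell-cycle genes, held the most Cdkn1a. PBS tumors 1 and 2, at 129 and 214 CPM, lay below and above all GB2 tumors, so the difference rested largely on PBS tumor 3. Cdkn1c alone of the 8 had an unadjusted p under 0.05 (12.5%, against 6.94% of all genes). It was higher in GB2 tumors, but its level was near 1 CPM or below in every tumor. Of 17 p53 target genes, 12 were lower in GB2 tumors (51.7% of all genes were), with a median log2 fold change of -0.34. Their median log2 CPM relative to the PBS mean was -0.32, 0.04 and 0.26 in PBS tumors and -0.05, -0.38 and -0.45 in GB2 tumors, so the groups overlapped. An unadjusted p under 0.05 was found in 3 (17.6%), all lower, against 6.94% of all genes (2.24% lower). Phlda3 measured 47.4, 60.0 and 69.1 CPM and 43.2, 36.7 and 42.2 CPM (-0.53), without overlap. Bbc3, which encodes PUMA, measured 6.98, 8.98 and 10.7 CPM and 6.96, 5.19 and 4.81 CPM (-0.65), and Bax, a pore-forming protein of cell death, measured 309.8, 95.9 and 84.2 CPM and 70.9, 58.4 and 86.1 CPM (-1.19), with PBS tumor 1 far above the rest. The Bax difference rested largely on PBS tumor 1, and GB2 tumor 3 lay above PBS tumor 3.

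The 50 genes varied more among PBS tumors than among GB2 tumors. The median coefficient of variation of CPM was 22.9% in PBS tumors and 7.22% in GB2 tumors, and it was larger in PBS tumors for 45 of 50 genes (90.0%). Among 8633 genes of like or higher level the medians were 23.0% and 10.2%, and it was larger in PBS tumors for 80.1%. Leaving out PBS tumor 1 lowered the median of the 50 genes in PBS tumors to 15.3%. PBS tumor 3 was the lowest tumor for 37 of the 50 genes and the highest for none. PBS tumor 1 was the highest for 21 genes and the lowest for 10. The genes it held highest relative to the other PBS tumors were Birc5, Gins1, Ccne2 and Top2a, by 1.82, 1.58, 1.36 and 1.05 on the log2 scale, and the genes it held lowest were Mcm2 and Kif20a, by -0.95 and -0.76. The share of all counts taken by the 50 genes was 0.793%, 0.797% and 0.624% in PBS tumors and 0.838%, 0.829% and 0.929% in GB2 tumors, and here the GB2 tumors lay above the PBS tumors. On the TMM-scaled values used elsewhere the 50 genes summed to 8681, 7905 and 6134 CPM in PBS tumors and 8104, 8338 and 8964 CPM in GB2 tumors, so that PBS tumor 1 lay above GB2 tumors 1 and 2 and the groups overlapped.

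**Figure D5:**
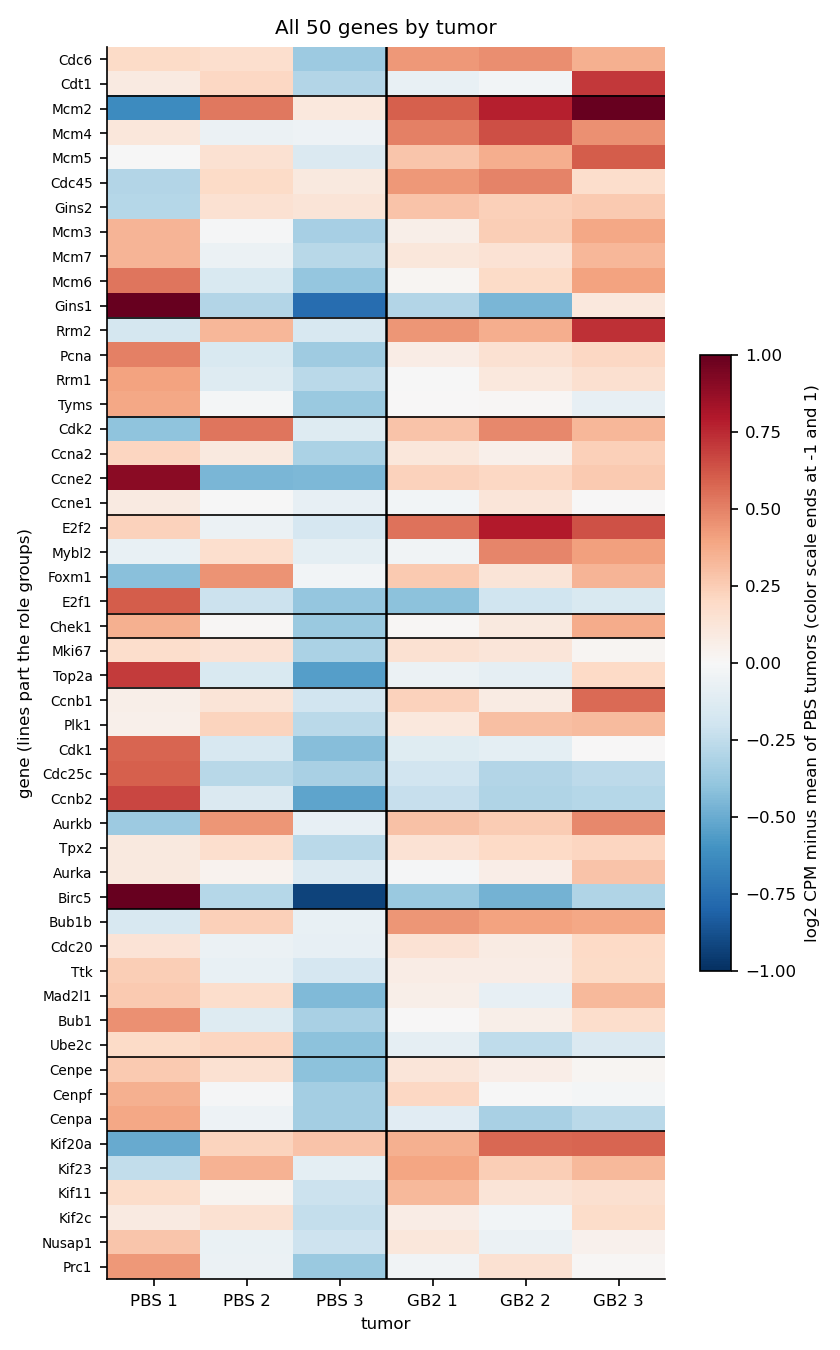
Log2 CPM of the 50 genes (rows, parted by role) in the 6 tumors (columns) relative to the mean of the PBS tumors, with colors ending at -1 and 1. PBS tumor 3 is the lowest tumor in 37 rows, PBS tumor 1 is the highest in 21, and the 3 GB2 columns resemble each other more than the PBS columns do.

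Levels of different genes were compared as FPKM, which divides by transcript length. Averaged over the 6 tumors, Pcna was the most abundant at 155 FPKM, followed by Cdk2 at 107 FPKM and Rrm2 at 90.2 FPKM, and E2f2 was the least abundant at 3.27 FPKM. In PBS tumors Pcna measured 144 ± 36.0 FPKM (SD, n = 3) and Cdk2 93.5 ± 36.5 FPKM, and these neighbors in the order overlapped within their spread. In GB2 tumors they measured 166 ± 8.27 FPKM and 121 ± 6.00 FPKM and did not overlap. The MCM ring subunits, which are needed in equal numbers, lay between 35.2 FPKM (Mcm4) and 56.1 FPKM (Mcm3) in PBS tumors and between 52.5 FPKM (Mcm5) and 81.3 FPKM (Mcm2) in GB2 tumors. Mcm4 measured 35.2 ± 0.271 FPKM in PBS tumors and 53.8 ± 2.5 FPKM in GB2 tumors. Mcm2 measured 47.4 ± 19.9 FPKM and 81.3 ± 11.98 FPKM, in the middle of the ring order in PBS tumors and at its top in GB2 tumors, with an SD in PBS tumors as wide as the differences between subunits.

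On the positions of the deposited table, which belong to a genome build other than GRCm38, the genes with an unadjusted p under 0.05 are Mcm4 (ENSMUSG00000022673) at 16:15441761-15455264, E2f2 (ENSMUSG00000018983) at 4:135899705-135923368, Mcm2 (ENSMUSG00000002870) at 6:88860456-88875762, Mcm5 (ENSMUSG00000005410) at 8:75836197-75855067, Bub1b (ENSMUSG00000040084) at 2:118428692-118472072 and Rrm2 (ENSMUSG00000020649) at 12:24758240-24764145. All 6 are listed with protein-coding transcripts, and none of them overlaps another gene in the GENCODE annotation of GRCm38. Of the 50 genes, 22 overlap another gene and 4 (Pcna, Ccnb1, Ccnb2 and Tyms) have pseudogene copies named after them. Cdk2 overlaps Pmel and Kif20a overlaps Cdc23 on the opposite strand. The libraries mark the strand, but the sources used here do not say whether the counting used it, so values of the overlapping genes and of those with copies are uncertain to that extent.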

How the data were processed

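Bulk RNA-seq of 3 PBS and 3 GB2 MC38 tumors was analysed. The libraries were poly-A selected, strand-marked and paired-end, and the submitters' processing notes name cutadapt 1.9, HISAT2 2.2.1, StringTie 2.1.6, DESeq2, edgeR and mm10. The authors deposited 2 values per gene and tumor. Estimated counts, as deposited, come as unscaled whole numbers. Values of 4 (7017) and 8 (3462) outnumbered those of 5 (2017) and 7 (1680), from which about 4 counts per read pair were assumed. That ratio was not tested, and values of 2 (4996) were frequent too. The authors also gave FPKM, scaled by transcript length and library size. Of 31999 gene IDs shared with GENCODE on GRCm38, 641 (2.00%) share both ends with it, so the table is not on mm10 positions.

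Counts were fitted in R 4.3.3 with edgeR 4.0.16 (filterByExpr with a minimum count of 10, which kept 19602 genes and all 50 described, TMM scaling, glmQLFit, glmQLFTest, Benjamini-Hochberg adjustment over all genes). Calls needed an adjusted p below 0.05 together with at least 2-fold change, the limits the study used. CPM use the TMM-scaled library size, and log2 CPM a prior count of 2. SE is the log2 fold change divided by the square root of the test statistic. The alternatives used DESeq2 1.42.0, other scaling and filters, counts divided by 4, a replicate block, limma 3.58.1 on log2(FPKM + 1) and log2(FPKM + 0.1), and each tumor left out in turn. The single-value exact permutation test was not printed, since its smallest p with 3 against 3 tumors is 0.1. Nothing but tumor numbers in the labels says that the tumors are separate animals, so p-values measure the spread between these samples. The labels give no sequencing batch.

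Depth ran from 64764405 to 83690056 counts per tumor. The biological coefficient of variation was 40.5% over all genes. The median SE of the log2 fold change was 0.21 for the 50 genes and 0.34 for all genes. The fit was tested on simulated counts of 18886 genes with 3 tumors per group: edgeR called 87 of 124 changes of 4-fold or more and 2 of 64 changes of 2-fold, and it also called 15 unchanged genes. The simulation gave both groups the same spread and changed genes drawn at random. It therefore does not say how often a change in the 50 genes would be called. The genes chosen to be given in full were Mki67, Top2a, Pcna and Cdk1 and, in each of 12 role groups, the gene with the smallest p and those with the highest and lowest log2 fold change. A few others, such as Mcm5, Mcm6, Gins2 and Ccne2, are given where a sentence turns on them. The 50 genes and all lists were chosen with earlier results of these data known.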

Additional observations from a re-analysis of the deposited data

How the results depend on the processing

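Across 13 alternatives no cell-cycle gene of the set was called. Of the 50 genes, 26 kept their sign in every alternative, Mcm4, E2f2, Mcm2, Mcm5, Rrm2 and Bub1b among them. Mcm4 had an unadjusted p under 0.05 in the edgeR fit and in each alternative, at log2 fold changes between 0.48 and 0.61. DESeq2 called 373 genes of the table, where edgeR called 0. The genes of the set with an unadjusted p under 0.05 numbered 6 in the edgeR fit, 4 with DESeq2 (6.02% of all genes) and 7 in each limma fit on FPKM (6.44% and 6.19% of all genes), and leaving out a tumor gave from 1 to 14. The tumor numbers did not pair the tumors (correlations of deviations 0.03, 0.15 and -0.24), and the replicate block gave 3 such genes (4.88% of all genes). With a tumor left out, the median log2 fold change of the S-phase genes ran from 0.19 to 0.41 and their difference to the mitotic genes from 0.11 to 0.24, the highest values without PBS tumor 1 and without PBS tumor 3. The median of the mitotic genes, 0.07 with all tumors, became 0.22 once PBS tumor 1 was left out, -0.054 once PBS tumor 3 was, and 0.16 and 0.17 in the limma fits.

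Signs turned in 24 of the 50 genes when a tumor was left out, in 15 without PBS tumor 3 and in 8 without PBS tumor 1. In 14 of them, those named by the rule for genes given in full, the log2 fold changes ran from -1.02 to 0.20 in Birc5, -0.59 to 0.063 in Ccnb2, -0.0080 to 0.092 in Ccne1, -0.32 to 0.23 in Cdk1 and -0.067 to 0.37 in Cdt1. They ran from -0.13 to 0.19 in Cenpe, -0.024 to 0.35 in Chek1, -0.49 to 0.065 in E2f1, -0.72 to 0.32 in Gins1 and -0.052 to 0.18 in Mki67. The remaining 4 of these ran from -0.058 to 0.41 in Pcna, -0.15 to 0.27 in Prc1, -0.31 to 0.37 in Top2a and -0.22 to 0.17 in Tyms. The other 10 were Bub1, Ccna2, Ccne2, Cdc25c, Cenpf, Kif2c, Mad2l1, Mcm6, Nusap1 and Rrm1, with the widest range in Ccne2 (-0.14 to 0.70). With the replicate block the value was 0.017 in Top2a. On log2(FPKM + 1) the turned values were 0.0045 in Cdk1, 0.091 in Top2a and 0.049 in Tyms, and on log2(FPKM + 0.1) they were 0.0055 in Cdk1, 0.093 in Top2a and 0.055 in Tyms. The cause of these differences was not tested. With 150 bases before the start in place of the whole window, the CHR letters stood in 30.0% of mitotic promoters in place of 70.0%, and in 10.5% of all genes. The E2F words then stood in 44.4% of S-phase promoters in place of 66.7%, and in 6.35% of all genes.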

Other observations

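The promoter letters and the fold changes were set side by side after the values had been seen, as a description with no test. Of the 14 genes with an E2F word in the RefSeq window, 13 were higher in GB2 tumors, with a median log2 fold change of 0.22. Of the 26 genes without one, 19 were higher, with a median of 0.06. Among the 14 were 6 of the 9 S-phase genes with a promoter entry and 2 of the 20 mitotic genes. The split by E2F word thus overlaps the split into S-phase and mitotic genes (medians of 0.23 and 0.07), and the 2 cannot be told apart here. Values in both sets were wide, from -0.13 to 0.65 with an E2F word and from -0.67 to 0.73 without. For the CHR letters, 14 of 19 genes with them and 18 of 21 without them were higher, at medians of 0.11 and 0.14. Mcm2, with the highest log2 fold change of all 50 genes, has no E2F word in its window.

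PBS tumor 1 held the 50 genes at a median of 0.31 on the log2 scale above the other PBS tumors, against 0.01 for all genes of like or higher level. Across the 50 genes this difference had a Spearman correlation of -0.43 with GC content and -0.01 with transcript length, against -0.21 and -0.44 across 8337 genes. These correlations are across genes of the same 3 libraries, which are not independent replicates.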
